A study of Mus musculus with 12 samples.

Results

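The voltage-gated sodium, calcium and HCN channel genes of the mouse prefrontal cortex were examined after repeated cocaine. They were taken by gene symbol (Scn, Cacna, Cacnb, Cacng and Hcn) among the loci that the deposited comparisons marked as tested. The genes reported number 35, out of 16012 tested loci in the 2 h table, 17143 in the 24 h table and 16769 in the 7 d table, and 34 of the 35 were tested at 7 d, where Cacna1a was not. Of these genes 17 encode pore-forming subunits (5 sodium channel α, 9 calcium channel α1 and 3 HCN subunits) and 18 encode auxiliary subunits (3 sodium channel β, 4 α2δ, 4 calcium channel β and 7 γ subunits). The mice were C57BL/6 animals (C57BL/6 J in the study's methods) of 10 weeks with no genetic change named in the labels. They received an injection of saline (the control groups of the labels) or of cocaine at 20 mg/kg per day for 14 days, and the prefrontal cortex was taken 2 h, 24 h or 7 d after the last dose. The 6 groups gave 2 libraries each, and each library was a pool of 5 mice.

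Sodium channel α subunits form the pore that carries the upstroke of the action potential, and their β subunits are small adhesion proteins that set gating and surface level. In voltage-gated calcium channels the α1 subunit is the pore, the intracellular β subunit and the extracellular α2δ subunit bring it to the membrane and tune its gating, and several γ subunits serve AMPA-type glutamate receptors as TARPs (transmembrane AMPA receptor regulatory proteins). HCN channels are opened by hyperpolarization and cyclic nucleotides, and they set the resting conductance and dendritic integration of cortical pyramidal neurons.

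The unit throughout is FPKM (fragments per kilobase of transcript and of sequencing depth), which is a level per length, and each value is the authors' pooled value of a group. There were no values per library, so no spread between replicates and no test could be had, and every difference given here compares 2 pooled values. Ratios are log2 of cocaine over saline after adding 0.1 FPKM to both, and they understate changes of low genes. A gene was counted as past the fold when cocaine and saline differed by at least 1.2-fold and their mean was at least 1 FPKM. Levels are listed with saline before cocaine. The 3 time points were assembled and normalized in separate tables, so their levels stand side by side only.

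Markers of neurons were abundant, with Snap25 at 1385 to 1581 FPKM and Slc17a7, the vesicular glutamate transporter of cortical excitatory neurons, at 466 to 532. The 3 olfactory bulb markers found were all under 1 FPKM, and 4 of 5 choroid plexus markers never reached 1, while Ttr went from 0.28 in saline to 6.54 in cocaine at 7 d. Marker levels moved between the groups as well. The neuron markers Snap25, Rbfox3, Syt1 and Stmn2 summed to 2136 and 2027 FPKM at 2 h (saline, then cocaine), then 2112 and 2084 at 24 h, then 2217 and 2047 at 7 d, and Neurod6 of excitatory neurons went from 37.2 in saline to 28.1 in cocaine at 7 d. The 5 astrocyte markers summed to 319 and 351 at 2 h, 367 and 327 at 24 h, then 313 and 351 at 7 d, and the 6 oligodendrocyte markers to 803 and 669 at 24 h. Striatal neuron markers summed to 71.4 and 80.3 at 2 h, and endothelial markers to 61.0 and 67.5 at 2 h and to 67.3 and 74.8 at 7 d. The part of these differences in the channel ratios was not tested. In bulk tissue, fewer cells of a type and less RNA per cell cannot be told apart.

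**Figure D1:**
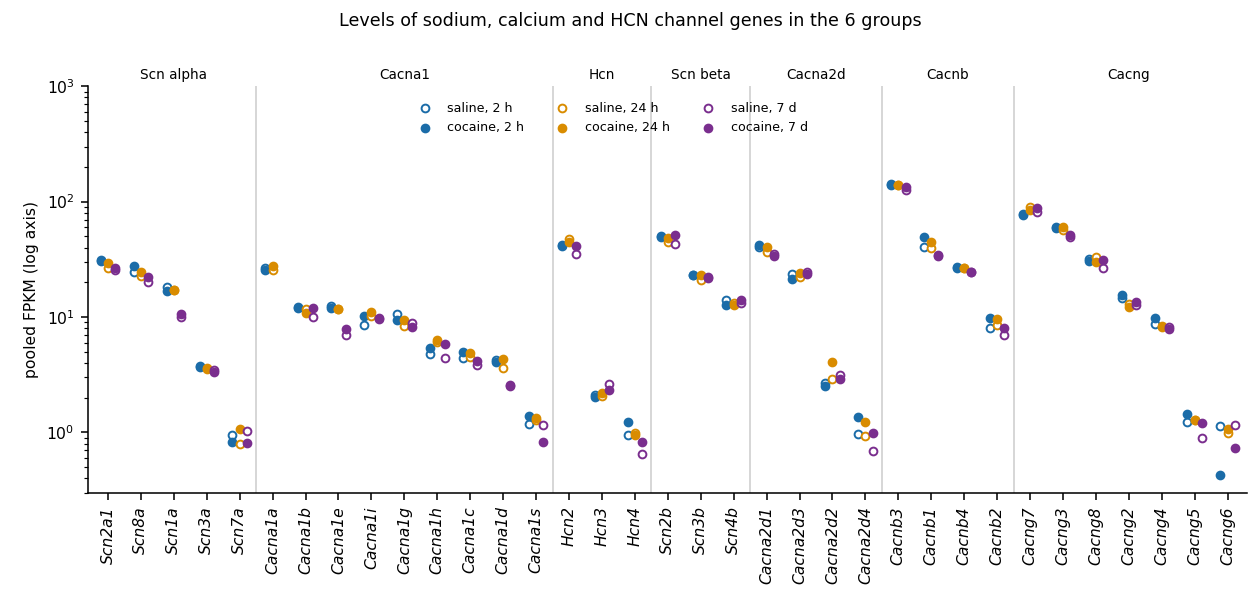
Pooled FPKM (log axis) of the 35 channel genes in the 6 groups, ordered by family and by mean level, with open symbols for saline and filled symbols for cocaine. Cacnb3 was the highest of these genes in every group, and the points of most genes lie close together beside the distance between genes.

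The levels spanned a 150.3-fold range between the means of the highest and the lowest gene, shown in the plot of levels by family. A mean of at least 10 FPKM was reached by 19 genes, 10 lay from 2 to 10 and 6 lay under 2. Across the 6 groups the highest value of a gene was a median of 1.23 times its lowest value among the 19 abundant genes, 1.29 times among those from 2 to 10 FPKM and 1.79 times among those under 2. Of the 34 neighbouring pairs in the order of mean levels, 26 had ranges that overlapped, so the order within most of the list is not fixed by these values, and 8 had ranges that did not. The median over auxiliary subunits was 21.6 to 23.6 FPKM in the 6 groups and that over pore-forming subunits was 5.71 to 9.43, and the 2 ranges did not overlap, with Cacna1a missing from the 7 d medians.

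Sodium channel pores were led by Scn2a1 and Scn8a. Scn2a1, the α subunit of unmyelinated axons and of young initial segments (Nav1.2), stood at 30.4 and 31.4 FPKM at 2 h, 26.7 and 29.4 at 24 h, then 25.5 and 26.5 at 7 d. Scn8a, which encodes Nav1.6 of the mature initial segment and nodes, was at 24.4 and 27.4 FPKM at 2 h, 22.8 and 24.6 at 24 h, then 20.1 and 22.2 at 7 d. Cocaine was the higher value for both genes at each time point, by log2 0.04, 0.14 and 0.06 for Scn2a1 and 0.17, 0.11 and 0.14 for Scn8a, all short of 1.2-fold. Both belong to the longest of 20 groups of loci by transcript length. The median ratio over all loci of that group was 0.08, 0.03 and 0.14, so the shared direction is not particular to these genes. Scn1a, the Nav1.1 subunit on which fast-spiking interneurons rely, had 18.1 and 16.7 FPKM at 2 h, 17.2 and 17.2 at 24 h, then 10.1 and 10.6 at 7 d. Both 7 d values of Scn1a were lower than its other 4, and its locus in the 7 d table was chr2:66270781-66634962 (GRCm38), which reaches beyond the end at 66440840 of the other tables. The untested Scn9a row has the same start and end at 7 d, while at 2 h and 24 h it started at 66440880. Scn3a, the α subunit best known from the embryonic brain, stayed between 3.35 and 3.79 FPKM, and Scn7a, a sodium sensor that is not opened by voltage, between 0.79 and 1.06.

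Scn2b, Scn3b and Scn4b, sodium channel β subunits, stood between 12.6 and 51.1 FPKM. Scn2b, the β subunit that is disulfide-linked to the pore, was at 50.4 and 49.6 FPKM at 2 h, 44.9 and 48.1 at 24 h, then 43.0 and 51.1 at 7 d, and its 7 d ratio of 0.25 lay just under the 1.2-fold limit of 0.26. Scn3b, a β subunit that binds the pore without a covalent link, had 23.1 and 23.3 FPKM at 2 h, 20.9 and 23.0 at 24 h, then 21.8 and 22.1 at 7 d. Scn4b, which supplies the blocking particle of resurgent sodium current, was at 14.1 and 12.6 FPKM at 2 h, 13.3 and 12.7 at 24 h, then 13.3 and 14.1 at 7 d. The ranges of these 3 genes did not overlap. The α genes summed to 60.2 to 80.1 FPKM.

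Among calcium channel pores, Cacna1a was the highest wherever it was tested. This P/Q-type pore, which triggers transmitter release at most central synapses, stood at 26.4 and 25.5 FPKM at 2 h and 25.8 and 28.0 at 24 h, and at 7 d its row carries no completed test. Cacna1b, the N-type pore, was at 12.2 and 12.1 FPKM at 2 h, 11.6 and 10.8 at 24 h, then 10.0 and 12.04 at 7 d. Cacna1e, the R-type pore, had 12.4 and 11.9 FPKM at 2 h, 11.7 and 11.7 at 24 h, then 7.03 and 7.87 at 7 d, and both of its 7 d values were below the other 4. For Cacna1b the 7 d ratio was 0.264, higher in cocaine and just past the 1.2-fold limit of 0.263, while its ratios were -0.01 at 2 h and -0.11 at 24 h. Of the T-type pores, which open near rest, Cacna1i ranged from 8.62 to 11.1 FPKM and Cacna1g from 8.28 to 10.7. Cacna1h, the third T-type pore, was at 4.82 and 5.37 FPKM at 2 h, 6.11 and 6.35 at 24 h, then 4.39 and 5.85 at 7 d, and cocaine was 1.33-fold higher at 7 d. The L-type pores, which couple activity to transcription, were lower: Cacna1c ranged from 3.87 to 4.97 FPKM. Cacna1d had 4.28 and 4.06 FPKM at 2 h, 3.58 and 4.33 at 24 h, then 2.54 and 2.60 at 7 d, a ratio of -0.07 at 2 h, 0.27 at 24 h and 0.03 at 7 d. Cacna1s, the skeletal muscle pore, stayed between 0.83 and 1.39.

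The α2δ subunits, of which Cacna2d1 and Cacna2d2 bind gabapentin, summed to 61.1 to 69.8 FPKM, 0.751 to 0.798 times the Cacna1 sum at 2 h and 24 h. Cacna2d1 stood at 40.6 and 42.3 FPKM at 2 h, 36.4 and 40.4 at 24 h, then 35.0 and 33.7 at 7 d. Cacna2d3, a further brain member, was at 23.6 and 21.2 FPKM at 2 h, 22.3 and 24.1 at 24 h, then 24.4 and 23.5 at 7 d. Their ratios stayed within 1.2-fold at each time point. Cacna2d2 was at 2.67 and 2.52 FPKM at 2 h, 2.89 and 4.07 at 24 h, then 3.15 and 2.91 at 7 d, and its 24 h ratio of 0.48 was 1.39-fold, beside -0.08 and -0.11 at 2 h and 7 d. Cacna2d4, best known from the retina, had 0.97 and 1.35 FPKM at 2 h, 0.93 and 1.23 at 24 h, then 0.69 and 0.99 at 7 d, the cocaine value being higher in all 3 tables. Its saline value was under 1 FPKM in each of them, so it met the mean of 1 at 2 h and 24 h through its cocaine value, and at 7 d it did not meet it.

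The calcium channel β subunits summed to 192 to 229 FPKM, 2.49 to 2.70 times the Cacna1 sum in the 2 h and 24 h tables. Cacnb3, which made up 62.5 to 66.8% of that sum, was at 138 and 143 FPKM at 2 h, 139.9 and 138 at 24 h, then 127 and 135 at 7 d. Cacnb1, the form also found in skeletal muscle, stood at 40.2 and 49.4 FPKM at 2 h, 39.7 and 44.5 at 24 h, then 33.8 and 34.4 at 7 d, which is a ratio of 0.30, 0.17 and 0.03. Cacnb4, the gene mutated in lethargic mice, was at 27.1 and 26.7 FPKM at 2 h, 26.6 and 26.5 at 24 h, then 24.5 and 24.7 at 7 d, and its ratios lay from -0.02 to 0.01. Cacnb2, the main cardiac form, had 8.02 and 9.82 FPKM at 2 h, 8.46 and 9.69 at 24 h, then 7.04 and 8.00 at 7 d, a ratio of 0.29, 0.19 and 0.18. At 2 h Cacnb1 and Cacnb2 were thus past 1.2-fold and Cacnb3 and Cacnb4 were not.

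Because this family divided so at 2 h, the 250 bases before the RefSeq start (GRCm38.p6) are shown for Cacnb1 on the minus strand at chr11:98022628-98022877, Cacnb2 on the plus strand at chr2:14604056-14604305, Cacnb3 on the plus strand at chr15:98632078-98632327 and Cacnb4 on the minus strand at chr2:52676144-52676393. They are written 5′ to 3′ on the strand of the gene, and capitals mark the GC box in either orientation, GGGCGG or CCGCCC.
Cacnb1: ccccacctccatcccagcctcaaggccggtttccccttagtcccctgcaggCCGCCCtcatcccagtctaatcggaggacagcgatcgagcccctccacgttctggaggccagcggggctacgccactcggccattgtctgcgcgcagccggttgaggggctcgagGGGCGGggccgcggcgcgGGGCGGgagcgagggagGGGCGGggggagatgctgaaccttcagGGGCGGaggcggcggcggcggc
Cacnb2: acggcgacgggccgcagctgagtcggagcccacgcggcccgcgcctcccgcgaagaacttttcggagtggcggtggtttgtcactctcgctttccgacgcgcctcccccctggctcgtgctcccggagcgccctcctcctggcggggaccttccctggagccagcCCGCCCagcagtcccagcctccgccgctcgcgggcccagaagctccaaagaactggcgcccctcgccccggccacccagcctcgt
Cacnb3: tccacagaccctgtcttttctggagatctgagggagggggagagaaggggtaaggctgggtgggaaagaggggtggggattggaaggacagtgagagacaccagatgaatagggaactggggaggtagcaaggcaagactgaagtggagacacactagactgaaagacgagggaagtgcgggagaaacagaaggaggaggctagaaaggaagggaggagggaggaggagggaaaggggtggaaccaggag
Cacnb4: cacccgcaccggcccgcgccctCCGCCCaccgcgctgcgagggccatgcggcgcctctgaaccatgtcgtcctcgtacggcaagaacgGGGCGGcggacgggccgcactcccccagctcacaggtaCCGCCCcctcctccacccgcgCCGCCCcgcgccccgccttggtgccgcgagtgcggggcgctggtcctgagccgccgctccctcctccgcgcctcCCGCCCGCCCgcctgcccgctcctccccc
The Cacnb1 and Cacnb2 windows were both 73.2% G and C, with 26 and 30 CG pairs, and held 5 and 1 GC boxes. The Cacnb3 window was 56% G and C with 2 CG pairs and no GC box. The Cacnb4 window was 79.6% G and C with 37 CG pairs and 6 GC boxes, 2 of them overlapping, so the windows of Cacnb3 and Cacnb4, both within 1.2-fold at 2 h, lay on either side of those of Cacnb1 and Cacnb2. Over 32851 promoters of the same length the median was 52.4% and 6 CG pairs, and 32.7% held a GC box. The letters TGACG (the core of the cyclic AMP response element), TGANTCA (AP-1), CACGTG (E-box), GCGNGGGCG (Egr) and TATAAA were found on neither strand of these windows, and 17.8, 6.75, 6.02, 4.7 and 12.4% of all promoters hold them. The start used lay 7865 bases inside the end of the deposited locus for Cacnb1, against 316 for Cacnb2, 108 for Cacnb3 and 688 for Cacnb4. The windows of Cacnb1, Cacnb2 and Cacnb4 thus lie within the deposited loci, that of Cacnb3 does so in part, and all 4 may hold transcribed bases. In the Cacnb4 window the letters from atgtcgtcc read on in triplets without a stop up to caggta. That window may thus hold coding sequence, so its G and C content and GC boxes are not read as those of a promoter. Bases taken after the start were found in an annotated protein-coding transcript for Cacnb1, Cacnb2 and Cacnb3 but not for Cacnb4. Each of the 4 genes has more than 1 start in RefSeq, so these windows need not be the promoters in use here.

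The γ subunits were led by the TARPs. Cacng7 stood at 77.0 and 77.5 FPKM at 2 h, 90.2 and 84.1 at 24 h, then 81.5 and 88.1 at 7 d. Cacng3, a TARP of the forebrain, was at 58.8 and 60.5 FPKM at 2 h, 56.8 and 60.6 at 24 h, then 49.4 and 51.4 at 7 d. Cacng8, the TARP that is prominent in hippocampus, had 31.6 and 30.5 FPKM at 2 h, 32.9 and 29.9 at 24 h, then 26.4 and 31.0 at 7 d. Cocaine was above saline for Cacng8 at 7 d by 0.23 and below it at 2 h and 24 h, by -0.05 and -0.14, all within 1.2-fold. Cacng2 (stargazin) ranged from 12.1 to 15.4 FPKM and Cacng4 from 7.94 to 9.87. Cacng5 had 1.23 and 1.45 FPKM at 2 h, 1.27 and 1.28 at 24 h, then 0.90 and 1.21 at 7 d, and its 7 d ratio of 0.39 rests on a saline value under 1. Cacng6, a relative of the muscle γ subunit, was at 1.14 and 0.43 FPKM at 2 h, 0.9973 and 1.08 at 24 h, then 1.17 and 0.73 at 7 d, so that cocaine was lower at 2 h by log2 -1.24 and at 7 d by -0.62, with means under 1 FPKM in both.

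Hcn2, the HCN form found widely in the brain, stood at 41.4 and 41.7 FPKM at 2 h, 47.8 and 45.1 at 24 h, then 35.2 and 41.5 at 7 d, with a ratio of 0.24 at 7 d. Hcn3 was at 2.12 and 2.04 FPKM at 2 h, 2.07 and 2.21 at 24 h, then 2.62 and 2.34 at 7 d, all 6 values far below those of Hcn2. Hcn4, the pacemaker form of the sinus node, had 0.95 and 1.22 FPKM at 2 h, 0.98 and 0.94 at 24 h, then 0.65 and 0.83 at 7 d, and it met the mean of 1 FPKM at 2 h alone, through its cocaine value.

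**Figure D2:**
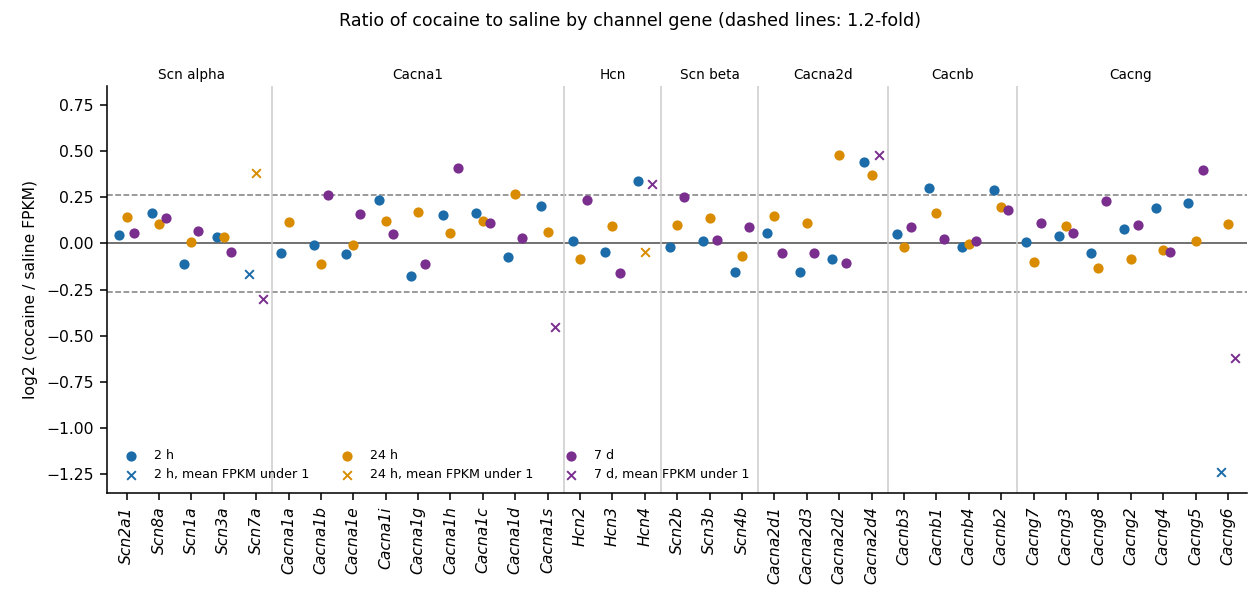
Log2 ratio of cocaine to saline (FPKM plus 0.1) for each channel gene at 2 h, 24 h and 7 d, with dashed lines at 1.2-fold and crosses for genes with a mean under 1 FPKM. The genes past the lower line are crosses, and the circles beyond the upper line are 4 genes at 2 h, 3 at 24 h and 3 at 7 d.

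Counted over the channel genes with a mean of at least 1 FPKM, 4 of 33 were past 1.2-fold higher in cocaine at 2 h (Cacnb2, Cacnb1, Hcn4 and Cacna2d4), beside 10.8% of all 13705 loci at that level, and 0 of 33 were past it lower, beside 7.87%. At 24 h 3 of 33 were higher (Cacna1d, Cacna2d4 and Cacna2d2), beside 6.62% of 14175 loci, and 0 lower, beside 6.1%. At 7 d 3 of 29 were higher (Cacna1b, Cacng5 and Cacna1h), beside 8.58% of 13805 loci, and 0 lower, beside 12.5%. The higher counts are 4, 3 and 3 genes and so are near those shares. Hcn4 at 2 h, Cacna2d4 at 2 h and 24 h and Cacng5 at 7 d entered them through the cocaine value, with saline under 1 FPKM. At a mean of at least 5 FPKM the counts were 2, 0 and 2, so nothing further is read from them. Every gene on these lists except Cacna2d4 was past the limit at 1 time point only among genes at a mean of 1 FPKM. The 5 ratios past 1.2-fold with a mean under 1 FPKM that were not yet given were those of Scn7a (0.38 at 24 h and -0.30 at 7 d), Cacna1s (-0.45 at 7 d) and Hcn4 and Cacna2d4 (0.32 and 0.48 at 7 d). In the 2 h table the loci of the genes past the limit from above 2 FPKM were Cacnb1 at chr11:98001449-98030492, Cacnb2 at chr2:14603990-14988815, Cacna1b at chr2:24603877-24763162, Cacna1d at chr14:30009023-30527056, Cacna1h at chr17:25369273-25433783 and Cacna2d2 at chr9:107399612-107529346 (GRCm38), and each overlaps the RefSeq gene of that name.

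The share of loci past the limit was smaller at higher levels. At 10 FPKM or more, 1 of 20 channel genes was past 1.2-fold in either direction at 2 h (Cacnb1), 0 of 20 at 24 h and 1 of 17 at 7 d (Cacna1b), beside 8.56, 5.83 and 16.5% of all loci of that level. From 2 to 10 FPKM it was 1 of 9, 2 of 9 and 1 of 11 channel genes, beside 22.9, 14 and 20.8% of loci. From 1 to 2 FPKM it was 2 of 4 (Hcn4 and Cacna2d4), 1 of 4 (Cacna2d4) and 1 of 1 (Cacng5), beside 38.9, 29.3 and 36%, and each of these genes had a saline value under 1 FPKM and met the mean of 1 through its cocaine value, so nothing is read from these counts.

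Pore-forming and auxiliary subunits were then compared. Their median ratios at 2 h were 0.02 and 0.04, at 24 h 0.10 and 0.10, and at 7 d 0.07 and 0.07, where those over all loci were 0.02, 0.01 and -0.01. Cocaine was above saline for 9 of 16 pore-forming and 11 of 17 auxiliary genes at 2 h, beside 56.1% of all loci. It was above for 12 of 15 and 11 of 18 at 24 h, beside 53% of loci, and for 10 of 13 and 12 of 16 at 7 d, beside 47.5%. Hcn4 (2 h), Cacna2d4 (2 h, 24 h), Cacng6 (24 h) and Cacng5 (7 d) counted as above with saline under 1 FPKM. Cacng6 (2 h, 7 d), Cacna1s (7 d) and Scn7a (7 d), with saline over 1 and cocaine lower, missed the mean of 1. Left out although higher in cocaine were Scn7a (24 h), Hcn4 (7 d) and Cacna2d4 (7 d). These counts thus depend in part on the level filter. The pore-forming less the auxiliary median came to -0.0187 at 2 h, then -0.000447 and -0.00342 at 24 h and 7 d on the log2 scale, small values beside the range of single genes, which ran from -0.18 to 0.44 at 2 h. Families within a class differed more. The median was 0.17 for Cacnb at 2 h. The ratios of Cacna2d1, Cacna2d2 and Cacna2d3, which met the mean of 1 FPKM in each group, were 0.15, 0.48 and 0.11 at 24 h and -0.05, -0.11 and -0.05 at 7 d, while that of Cacna2d4 was above 0 at both. Scn2b, Scn3b and Scn4b and all 4 Cacnb genes were above 0 at 7 d, with medians of 0.09 and 0.06. The α genes Scn1a, Scn2a1, Scn3a and Scn8a were all above 0 at 24 h, with a median of 0.07 and Scn1a at 0.01.

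**Figure D3:**
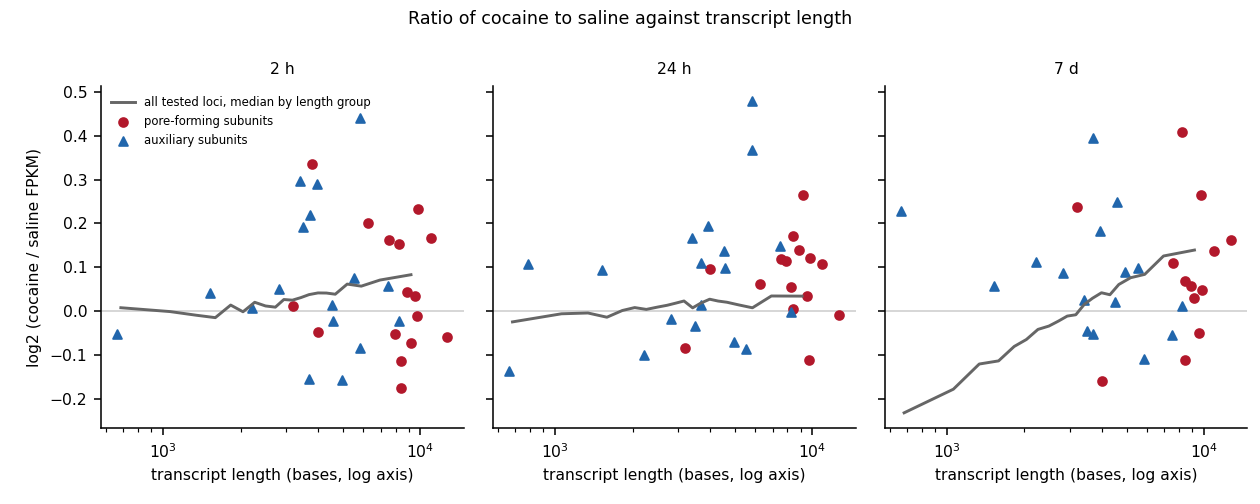
Log2 ratio of cocaine to saline against transcript length (bases, log axis) at 2 h, 24 h and 7 d, for pore-forming subunits (red circles) and auxiliary subunits (blue triangles) with a mean of at least 1 FPKM, and the median of all loci in 20 length groups (grey line). The grey line climbs from -0.23 to 0.14 at 7 d, and pore-forming subunits lie at its long end.

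Transcript length moved with the ratios, as the plot against length shows. The median longest protein-coding transcript was 8384.5 bases for the pore-forming and 3945 bases for the auxiliary subunits counted at 2 h. Over all loci with a length, the median ratio went from 0.01 in the shortest of 20 length groups to 0.08 in the longest at 2 h. The same span was -0.02 to 0.03 at 24 h and -0.23 to 0.14 at 7 d. With the median of its length group taken from each gene, the pore-forming median was -0.04, 0.07 and -0.07 at 2 h, 24 h and 7 d, and the auxiliary median was -0.01, 0.09 and 0.01. At 7 d 4 of 13 pore-forming genes were then above 0, where 10 of 13 had been before. The share of loci past 1.2-fold lower was likewise smaller among transcripts of at least 3195 bases, the length of the shortest pore-forming gene counted. It was 4.08, 3 and 3.14% at the 3 time points, and the share past it higher was 10.6, 4.55 and 10.5%. The counts of channel genes past the limit stand beside these shares only in part, as some auxiliary genes, such as Cacnb3 at 2819 bases, are shorter. The annotated model of Cacng8 is only 663 bases long, so its place on the length axis is uncertain. The part of length in these ratios was not tested further.

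Genes that bind or regulate these channels were read from a list of 40, of which 30 (2 h) or 31 (24 h and 7 d) were tested with a mean of at least 1 FPKM. Past 1.2-fold higher in cocaine was 1 gene at 2 h, Rrad, a small GTPase that blocks calcium channels, at 0.804 FPKM in saline and 1.197 in cocaine, which met the mean of 1 through its cocaine value, and 0 genes at 24 h and 7 d. Past it lower were 0 genes at each time point. The medians of the list were 0.05, 0.03 and 0.09, beside 0.03, 0.10 and 0.07 for the channel genes. Ank3, the ankyrin that anchors sodium channels at the initial segment, was at 29.3 and 31.8 FPKM at 2 h, 29.9 and 33.6 at 24 h, then 21.8 and 25.6 at 7 d. Cocaine was the higher value each time, which was not particular to Ank3. The same held for others of the list, among them Sptbn1, Nfasc, Cntn1 and Akap6, while others, such as Fgf12, changed direction between time points.

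Some channel genes stood in the tables more than once or were left untested. At 24 h, second tested rows were listed for Cacna1c (1.41 and 1.54 FPKM), Cacna2d1 (3.09 and 3.37), Cacna2d3 (3.19 and 2.37) and Cacng8 (11.3 and 10.9), and at 7 d for Hcn2 (3.63 and 1.71). The second rows of Cacna2d3 and Hcn2 were lower in cocaine by more than 1.2-fold while the rows used were not. Apart from Cacng8, each second row has the same start and end as the row used, which was the one with the higher mean FPKM, and reads of one gene may be divided between such rows. The genes Scn4a, Scn9a, Scn10a, Scn11a, Cacna1f and Cacng1, which serve mainly muscle, sensory neurons and retina, had no test in any table and reached at most 0.39 FPKM, the value of Scn9a.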

How the data were processed

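RNA of the prefrontal cortex was sequenced in 12 libraries of 6 groups. The authors trimmed the reads with Trimmomatic 0.32, aligned them with TopHat2 2.0.12 to GRCm38 and ran Cufflinks 2.2.1 and Cuffdiff, as the submitters' processing notes name them, and the paper names cutadapt for trimming, another Cufflinks version and an older build. The deposited tables, 1 for each time point, hold 1 pooled FPKM per group and locus. The columns of fold changes, test statistics, p-values and q-values are the authors' own comparisons and were not used. The depth of the libraries is unknown from the tables, so no interval is given.

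The columns were checked against the saline and cocaine values of the study's supplementary lists: 392 of 453 genes at 2 h, 13 of 14 at 24 h and 494 of 528 at 7 d matched within 3% as mapped, and 0 matched if swapped. Some genes that match the symbols are not reported here and enter no count of channel genes. Each channel gene took the longest of its tested loci, and ties went to the higher mean FPKM. Positions are 1-based on GRCm38. All loci of channel genes overlapped the RefSeq gene of the same name. Lengths were those of the longest protein-coding model with that symbol in GENCODE vM1, an older build used for lengths only, and were found for 87.8, 87.2 and 87.1% of loci at 2 h, 24 h and 7 d. Levels in every group are given for the 3 highest genes of a family and for genes past 1.2-fold, and every other channel gene is named with its range. The genes and lists were chosen with earlier results of these data known. Python 3.11.15, pandas 2.3.3, numpy 2.4.6 and matplotlib 3.10.9 were used, and the steps were tested on simulated data. The alternatives covered the pseudocount, the level filter, centring on the median of all loci, the fold, the choice of row, transcript length and the families included.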

Additional observations from a re-analysis of the deposited data

Results flagged for a closer look

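Cacna1a, the P/Q-type calcium channel pore, was left out of the comparisons at 7 d because its row there carries no completed test. That row lists 23.6 FPKM in saline and 26.1 FPKM in cocaine, so the pooled cocaine value was the higher one, and it drew attention as a signal outside the values compared.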

How the results depend on the processing

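No paired analysis was possible because each table holds 1 pooled value per group, and for the same reason leaving out a replicate or a count test could not be run. Ratios centred on the median of all loci gave no value that moved. Of 144 values recomputed under the alternatives 117 counted as kept, a median within 0.05 log2 and a count within 1.5 times, and 27 moved. The limit of 0.05 is wider than several of the medians, so a median counted as kept can change sign. The pore-forming median at 2 h, 0.023, was -0.011 in calcium channel genes only. The pore-forming less the auxiliary median at 2 h was 0.0087 without Cacng. The 117 therefore does not show that such small medians are stable. The count of channel genes past the fold and higher in cocaine at a fold of 1.1 came to 11, 9 and 8 at the successive time points, and at 1.5 to 0, 0 and 0. With a pseudocount of 1 it was 2, 1 and 1. At a mean of at least 5 FPKM it was 2 at 2 h and 0 at 24 h, and with no filter on low FPKM it was 5 at 7 d. The count lower in cocaine was 1 at 2 h and 3 at 7 d with no filter, and 3 at 2 h and 1 at 7 d at a fold of 1.1. The auxiliary median moved at 2 h to -0.0123 less the length-group median and to -0.0222 in sodium channel genes only. It moved at 24 h to 0.0458 at 5 FPKM or more, and at 7 d to 0.0137 less the length-group median. The pore-forming median less the length-group median was -0.0442 at 2 h and -0.0714 at 7 d, and at 5 FPKM or more it was 0.137 at 7 d. The pore-forming less the auxiliary median was 0.0611 at 2 h in sodium channel genes only. For 7 d it was 0.0658 at 5 FPKM or more, -0.0851 less the length-group median and 0.0537 in calcium channel genes only. The cause of these moves was not tested beyond what each setting takes out. The limits are those of 1 pooled value per group: the spread between libraries is not known, and genes near 1 FPKM carry the widest ratios. For depth, the paper gives only a range of reads over the replicates.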

Other observations

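Set side by side across the separately normalized tables, the channel genes were lower at 7 d than at 2 h in the control groups. The log2 ratio of the 7 d to the 2 h saline value had a median of -0.21 over 29 channel genes, 24 of them below 0, where the median over 12749 genes was -0.00 and that over 835 genes with transcripts of at least 7000 bases was -0.18. Against 24 h the saline median was -0.14 with 24 of 29 below 0, and -0.18 for the long transcripts. Between the cocaine groups of 7 d and 2 h it was -0.17 with 21 of 29 below 0, and -0.12 for the long transcripts. The genes with the widest gap were Scn1a (18.1 FPKM in saline at 2 h and 10.1 at 7 d), Cacna1e (12.4 and 7.03) and Cacna1d (4.28 and 2.54), which were picked after their values were seen. For Scn1a the 7 d locus is also longer than the 2 h locus and has the same ends as that of Scn9a. Table and time point cannot be told apart here.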
